A study of Drosophila melanogaster with 12 samples.

Results

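Of 16637 transcripts measured in Kc cells, a line derived from Drosophila melanogaster embryos, 92 were at least 0.4 lower on the log2 scale after 3 h of the steroid hormone 20-hydroxyecdysone (20HE) than at 0 h, averaged over cells treated with RNAi against CP190 and cells treated with control RNAi. The members were chosen by this measured change. The rule also asked for a highest group mean over 2-fold (1 on the log2 scale) above the random-sequence control of the arrays, a probe set that matches no fly transcript and reads the background. A transcript was to be dropped where it lay within 1.5-fold of that control at 0 h in both arms and over 4-fold above it at 48 h. Of the 93 transcripts that fell this far, 92 passed the floor and 0 were dropped. The floor lay at an intensity of 835, and 67 of the 92 were above it in all 6 groups, while 1, FBtr0112496, passed it in a single group. Because the 3 h against 0 h change chose the members, its size is described here with no test.

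The 12 samples were Kc cells grown in serum-free medium and form 6 groups of 2 biological replicates. They comprise CP190 RNAi cells after 0, 3 and 48 h of 20HE, and control RNAi cells, treated with RNAi against beta-galactosidase, after the same times. All 6 groups thus carry an RNAi treatment. Each sample's total RNA, carrying the dye Cy3, was read on an array with 8 probes per gene, which gives a linear intensity for each transcript. As these are bulk samples, fewer cells of a type and less RNA per cell cannot be told apart.

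20HE acts through a nuclear receptor made of EcR and Usp, which switches between repressing and activating its target genes when the hormone binds. In insects a pulse of the hormone first changes a small set of early genes, many of them transcription factors, and these then change a much larger set of late genes. Kc cells are known to stop dividing and change shape in the hormone. CP190 is a zinc finger protein found at insulators, the DNA elements that separate regulatory domains, and at many active promoters.

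The random-sequence control lay between 413 and 425 on every array and array medians lay between 1135 and 1227. Intensities under 626 are called near background here, since they lie within 1.5-fold of the random control, where a fold change is understated. The transcripts carry FlyBase identifiers. The RefSeq gene table holds 44 of the 16637 and 0 of the 92, so the members are given by identifier, with no gene name or function. For the same reason neither the level of the CP190 transcript nor markers of the cell line were analysed here. Identifiers with neighbouring numbers can be transcripts of 1 gene and can then share probes. Joining members whose numbers lie within 5 of each other gave 62 blocks, of which 15 held 2 to 6 members (45 in all) and 47 held 1, so the 92 are not 92 independent measurements.

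The fall at 3 h was moderate in size and present in both arms. Over the 92, the change ranged from -0.93 to -0.40 with a median of -0.54, which left between 52.5 and 75.6% of the 0 h level. The largest fall was that of FBtr0077311. In CP190 RNAi cells it had intensities of 1347 and 1315 at 3 h, against 2321 and 2528 at 0 h, and in control RNAi cells 1081 and 1271 at 3 h, against 2610 and 2087 at 0 h. All 4 arrays at 3 h lay below all 4 at 0 h, and its log2 change was -0.86 in CP190 and -0.99 in control RNAi cells. FBtr0077877 came next, with 5269 and 4319 at 3 h, against 8151 and 6419 at 0 h, in CP190 RNAi cells. In control RNAi cells it had 2788 and 1919 at 3 h, against 5577 and 5113 at 0 h. Its replicates at 3 h and 0 h did not overlap in either arm, and 65.9% of the 0 h level was left in CP190 and 43.3% in control RNAi cells. At the limit, FBtr0074073 was the last transcript inside, at -0.403, and FBtr0071625 the first outside, at -0.3997.

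Among the 92, 58 fell by at least 0.4 in CP190 RNAi cells taken alone, 89 in control RNAi cells and 55 in both. Over all transcripts these shares were 0.469, 0.890 and 0.331%, and 0.559% for the mean of both arms, figures that are fixed by the choice of members and from which nothing is read. Both 3 h arrays lay below both 0 h arrays for 80 members in CP190 RNAi cells, 89 in control RNAi cells and 78 in both arms. Of all transcripts, 17.7, 14.7 and 3.95% met the same criteria, which count falls only. Replicates of the same number gave 4 separate pairs of 3 h and 0 h arrays, and 91 of the 92 members were lower at 3 h in all 4. Both counts come from the arrays that chose the members, so they describe the choice and nothing is read from them either. At 0 h the members had a median intensity of 3688 (830 to 18057), close to the 3697 of the 9787 other transcripts above the floor. The SD of the difference between replicates was 0.195 to 0.276 for the members and 0.155 to 0.206 for all transcripts, depending on the group.

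The fall was also read in arrays whose own change had not chosen it. The limit on the 3 h change was applied to 1 arm and the other was read, since the arms share no array. The floor and the drop step still used all 12 arrays. The 78 transcripts chosen in CP190 RNAi cells had a median change of -0.50 there and -0.56 in control RNAi cells, where 73 of them were below 0. The 147 chosen in control RNAi cells had a median of -0.54 there and -0.33 in CP190 RNAi cells, where 146 were below 0. The 101 transcripts chosen on replicate 1 had a median of -0.53 in replicate 2, and the 98 chosen on replicate 2 had -0.51 in replicate 1, with every one below 0 in both readings. Over transcripts above the floor these 4 medians lay between -0.0087 and 0.0066. The size of the list rested in part on 1 array, since choosing without control 0 h replicate 2 gave 149 transcripts, 90 of the 92 among them.

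The fall was smaller in CP190 RNAi cells for 76 of the 92 members (82.6%), although no single transcript passed the test of this difference. The median change was -0.45 in CP190 RNAi cells, leaving 73.3% of the 0 h level, and -0.64 in control RNAi cells, leaving 64.3%. The median of the difference, CP190 minus control, was 0.21, against 0.014 for transcripts above the floor, of which 54.5% had a higher change in CP190 RNAi cells (50.0% of all transcripts). The difference of responses was tested with limma, and it has no covariance with the mean of both arms that chose the members where all arrays vary alike. It called 0 of 92 members, beside 0% of all transcripts. With the replicate number as a block it again called 0 members, beside 4 of all transcripts. At an unadjusted p under 0.05 there were 16 members, all with the smaller fall in CP190 RNAi cells, beside 2.42% of all transcripts and 1.56% of those above the floor. The standard error of this difference had a median of 0.195 for a single member, about the size of the median difference, and the lowest adjusted p was 0.9999. A smaller response in CP190 RNAi cells was also seen on the other side. Of the 217 transcripts above the floor that rose by at least 0.4 at 3 h, 157 (72.4%) rose less in CP190 RNAi cells, with medians of 0.59 in CP190 and 0.73 in control RNAi cells. Of the 9787 other transcripts above the floor, 45.7% had the lower change in CP190 RNAi cells. The 157 became 158 in replicate 1 alone, 134 in replicate 2 alone and 135 to 165 with single arrays left out. These counts use the same 0 h and 3 h arrays as the fall.

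The count of 76 members was 73 in replicate 1 alone and 67 in replicate 2 alone. It lay between 62 and 82 when single arrays were left out, lowest without control 0 h replicate 1 or control 3 h replicate 2. Among the 47 members with no neighbour by identifier it was 33 (70.2%). The SD between replicates over all transcripts was 0.183 and 0.167 in CP190 RNAi cells at 0 and 3 h, and 0.206 and 0.182 in control RNAi cells. The part of this spread in the smaller fall was not tested.

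**Figure D1:**
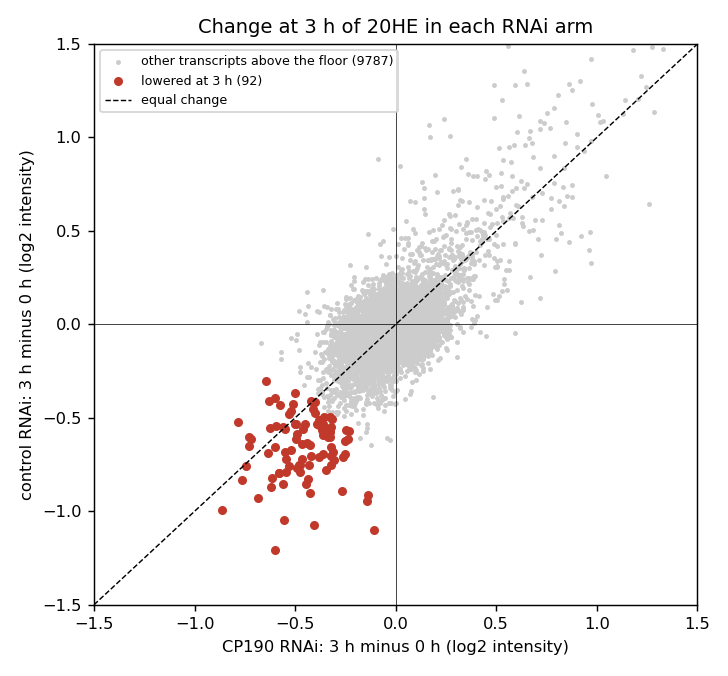
Log2 change from 0 h to 3 h of 20HE in CP190 RNAi cells (horizontal axis) and control RNAi cells (vertical axis), for the 92 lowered transcripts (red) and the 9787 others above the floor (grey), each point being the difference of means of 2 arrays. Axes end at 1.5, so the strongest rises lie outside. Of the red points, 76 lie below the dashed line of equal change, with the larger fall in control RNAi cells.

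FBtr0113039 had the widest gap between the arms. In CP190 RNAi cells its intensities were 844 and 1087 at 3 h, against 872 and 1225 at 0 h, and in control RNAi cells 973 and 1465 at 3 h, against 2427 and 2690 at 0 h. The CP190 arrays of both times thus overlapped, and the 0 h arrays of control RNAi cells stood apart from the rest. The log2 change was -0.11 in CP190 and -1.10 in control RNAi cells, a difference of 0.99 ± 0.28 (SE, unadjusted p among the 16 above, limma adjusted p = 0.9999). Singled out after their values were seen, FBtr0089910, FBtr0089911 and FBtr0114471 followed the same course, with profiles over the 12 arrays that differed from each other and from FBtr0113039 by at most 0.134 (root mean square, log2). Whether these 4 share probes is not given in the files.

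After 3 h the members took different courses. Classes were set by the mean of both arms with steps of 0.4. Of the 92, 24 were lower again at 48 h than at 3 h, 24 stayed within 0.4 of the 3 h level and at least 0.4 below 0 h, 33 came back to within 0.4 of the 0 h level, and 11 were at least 0.4 above it. These are 26.1, 26.1, 35.9 and 12% of the members. Over all transcripts these classes held 10.8, 1.5, 77.7 and 9.95%, and over those above the floor 17.9, 2.25, 64.0 and 15.9%. The classes use the 0 h and 3 h arrays that chose the members, so they are a description. The median fall at 3 h was alike in the 4 classes, between -0.55 and -0.50, while the median change from 0 to 48 h was -1.63, -0.59, -0.24 and 1.07.

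**Figure D2:**
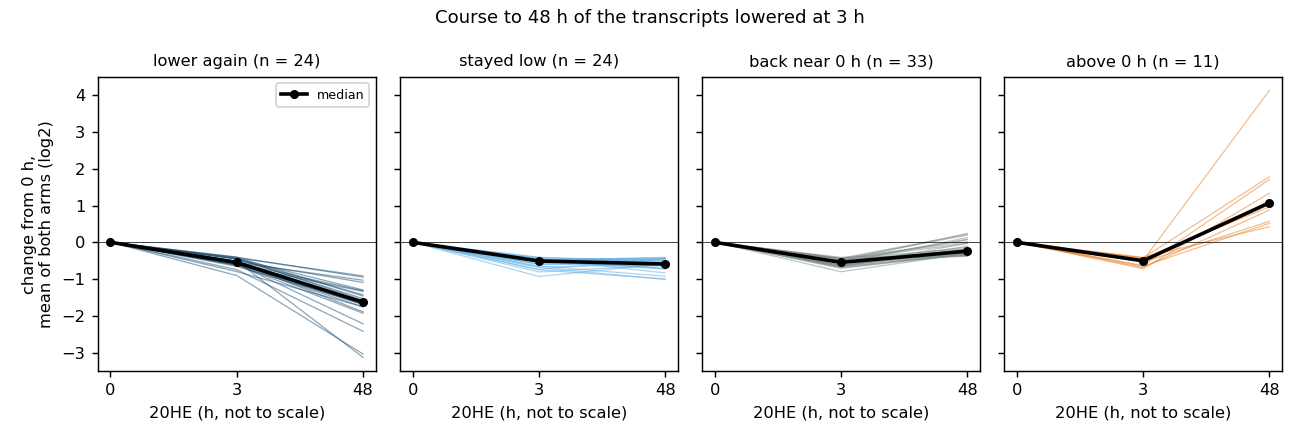
Log2 change from 0 h, averaged over both RNAi arms, at 3 h and 48 h of 20HE for the members of each class, with the class median in black. Thin lines are single transcripts, and the time axis is not to scale. The classes start from falls of similar size and end at medians of -1.63, -0.59, -0.24 and 1.07.

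A measure that does not use the chosen change is the 48 h level against the midpoint of 0 h and 3 h. By this test 20 members were higher at 48 h and 39 lower (limma adjusted p under 0.05, mean of both arms). That is 21.7 and 42.4% of the members, beside 18.8 and 24.0% of all transcripts and 27.5 and 35.8% of those above the floor, so the share that moved was close to the background of expressed transcripts. Changes of at least 2-fold were seen for 8 members higher (8.70%) and 20 lower (21.7%), beside 3.35 and 1.29% of all transcripts and 5.64 and 2.18% of those above the floor. The 20 include all 5 members of the block FBtr0083640 to FBtr0083647 and the 4 that share a profile with FBtr0113039, itself included. The 8 include FBtr0087454, FBtr0087455 and FBtr0087457, also of the same block. Neither count is therefore one of separate measurements. All 24 members that were lower again at 48 h were among the 39, and all 11 above 0 h among the 20. The choice of members and the class limits already place both classes away from the midpoint. Nothing is therefore read from this overlap.

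The deepest late falls were those of FBtr0079532 and FBtr0077877. FBtr0079532 had 14369 and 12882 at 0 h, 11881 and 9966 at 3 h and 1590 and 1660 at 48 h in CP190 RNAi cells. In control RNAi cells it had 7019 and 8723 at 0 h, 5475 and 4228 at 3 h and 857 and 847 at 48 h. The 48 h arrays lay far below the rest in both arms, and CP190 RNAi cells stayed above control RNAi cells at each time. Against the midpoint its 48 h level had a log2 change of -2.88 ± 0.085 (SE; adjusted p = 1.79e-10). FBtr0077877 ended at 949 and 711 in CP190 RNAi cells and at 696 and 694 in control RNAi cells at 48 h, with a change of -2.59 ± 0.11 (SE; adjusted p = 5.38e-09). Its intensities at 48 h were not far above the near-background limit of 626, which can understate the fall. Of the 24 members in the class that went lower again, 10 had a 48 h array near background.

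The largest late rise was that of FBtr0087455. It had 1967 and 1725 at 0 h, 1424 and 1276 at 3 h and 26693 and 27518 at 48 h in CP190 RNAi cells. In control RNAi cells it had 1887 and 1831 at 0 h, 1186 and 1390 at 3 h and 39353 and 38132 at 48 h. The fall at 3 h was thus followed by a level 17.5-fold that at 0 h, averaged over the arms. Saturation of its probes at these high intensities was not tested. Against the midpoint the change was 4.38 ± 0.061 (SE; adjusted p = 9.14e-13). FBtr0087454, whose number is next to it, rose by 2.02 ± 0.047 against the midpoint (SE; adjusted p = 3.46e-11). It had 7245 and 7215 at 0 h, 5070 and 4827 at 3 h and 20148 and 19921 at 48 h in CP190 RNAi cells, and 2944 and 2723, 1753 and 1682, and 11185 and 10603 in control RNAi cells. FBtr0087452, of the same block of identifiers, did not pass this test (0.12 ± 0.09, SE; adjusted p = 0.322), so neighbouring identifiers did not all move alike.

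**Figure D3:**
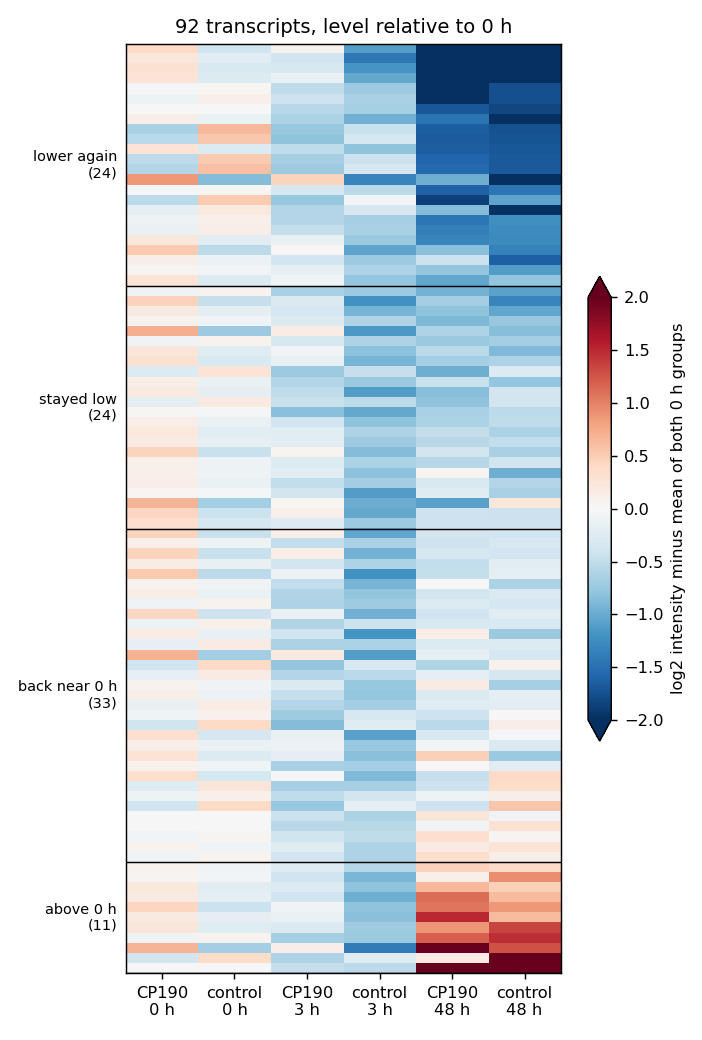
Group mean log2 intensity of the 92 transcripts (rows) in the 6 groups (columns), relative to the mean of both 0 h groups, ordered by class and by the change at 48 h. Colours end at 2 in both directions. Blue at 3 h is the choice of members, and the 48 h columns separate the 24 that went lower again from the 11 above 0 h.

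Levels also differed between the arms themselves, more often with CP190 RNAi cells above control RNAi cells. Averaged over the 3 times, 41 members were higher and 14 lower in CP190 RNAi cells (limma adjusted p under 0.05). These are 44.6 and 15.2% of the members, beside 10 and 9.86% of all transcripts and 14.5 and 15.8% of those above the floor. The share lower was therefore close to that of expressed transcripts, and the share higher was above it. The median difference was 0.17 for the members and -0.0090 for all transcripts. Counted by blocks of identifiers, 30 of 62 blocks held a member that was higher and 12 one that was lower. FBtr0113039, FBtr0114471 and the pair FBtr0089910 and FBtr0089911 share a profile but lie in separate blocks, each among the 12. Blocks of all transcripts were not counted and larger blocks have more members to be called, so these counts are a description only.

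FBtr0081868 was the member most raised by CP190 RNAi. In CP190 RNAi cells it had 4543 and 4449 at 0 h, 3520 and 3239 at 3 h and 1257 and 1263 at 48 h, against 1431 and 1283, 1117 and 881, and 499 and 597 in control RNAi cells. The arms did not overlap at any time, and the mean difference was 1.57 ± 0.07 (SE; adjusted p = 7.58e-08). The control arrays at 48 h were near background, where a fold change is understated, and the difference there was 1.21 ± 0.12 (SE). FBtr0087454 was higher by 1.25 ± 0.045 (SE; adjusted p = 1.49e-08). On the other side, FBtr0076243 had a mean difference of -1.45 ± 0.10 (SE; adjusted p = 2.83e-06), and FBtr0074073 had -0.85 ± 0.12 (SE; adjusted p = 3.65e-04).

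At 0 h, 21 members were higher in CP190 RNAi cells and 11 lower, 22.8 and 12.0% of the members beside 4.45 and 2.89% of all transcripts and 6.82 and 4.68% of those above the floor. By blocks of identifiers, 16 of 62 held a member that was higher and 9 one that was lower, a description only. The 11 include FBtr0089910 and FBtr0089911, which share a profile with FBtr0113039 and FBtr0114471 of other blocks, so they are not 11 separate measurements. With the replicate block 32 were higher, beside 7.99% of all transcripts. Without CP190 0 h replicate 1 the 32 calls in all became 19. The highest was FBtr0081868 (1.73 ± 0.12, SE), described above, and FBtr0076921 came next. FBtr0076921 had 4249 and 2528 in CP190 RNAi cells and 1452 and 1007 in control RNAi cells, a difference of 1.44 ± 0.28 (SE; adjusted p = 0.00814). Its replicates differed widely in CP190 RNAi cells, and it did not pass without CP190 0 h replicate 1 (adjusted p = 0.0845) or control 0 h replicate 2 (0.0813). The lowest were FBtr0113039 (-1.31 ± 0.20, SE; adjusted p = 0.00182) and FBtr0114471 (-1.16 ± 0.18, SE; adjusted p = 0.00226), which share a profile.

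At 3 h, 36 members were higher and 4 lower in CP190 RNAi cells, 39.1 and 4.35% of the members beside 4.33 and 1.88% of all transcripts and 6.68 and 2.99% of those above the floor. All 21 that were higher at 0 h were also higher at 3 h, and no member had opposite calls at these times. The same pattern was not counted over all transcripts, so this is a description only. The total of 40 became 20 without CP190 3 h replicate 1 and 18 without control 3 h replicate 2. FBtr0081868 (1.77 ± 0.12, SE; adjusted p = 8.64e-06) and FBtr0087454 (1.53 ± 0.077, SE; adjusted p = 1.86e-06) were the highest, as in the mean over the 3 times. FBtr0086639 had 2551 and 3028 in CP190 RNAi cells and 4375 and 4233 in control RNAi cells, a difference of -0.63 ± 0.13 (SE; adjusted p = 0.0161). It did not pass without control 3 h replicate 1 (adjusted p = 0.0817), CP190 3 h replicate 1 (0.174) or control 3 h replicate 2 (0.079). FBtr0083157 had 824 and 789 in CP190 RNAi cells and 1134 and 1276 in control RNAi cells (-0.58 ± 0.091, SE; adjusted p = 0.00256).

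At 48 h the balance was different, with 12 members higher and 14 lower in CP190 RNAi cells. These are 13.0 and 15.2% of the members, beside 3.17 and 2.02% of all transcripts and 4.79 and 3.18% of those above the floor. The total of 26 became 16 and 17 without control 48 h replicate 1 and 2, and 15 without CP190 48 h replicate 1. The highest were FBtr0087452, with 15791 and 17875 in CP190 RNAi cells and 7149 and 7325 in control RNAi cells (1.22 ± 0.15, SE; adjusted p = 3.88e-04), and FBtr0113321, with 3868 and 4881 in CP190 RNAi cells and 1716 and 2055 in control RNAi cells (1.21 ± 0.19, SE; adjusted p = 0.00224). Of the 36 members higher in CP190 RNAi cells at 0 or 3 h, 26 were not past the threshold at 48 h. No share over all transcripts is given for this count, so nothing is read from it. Calls at separate times are not a test of a change between times, which is the difference of responses given next.

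**Figure D4:**
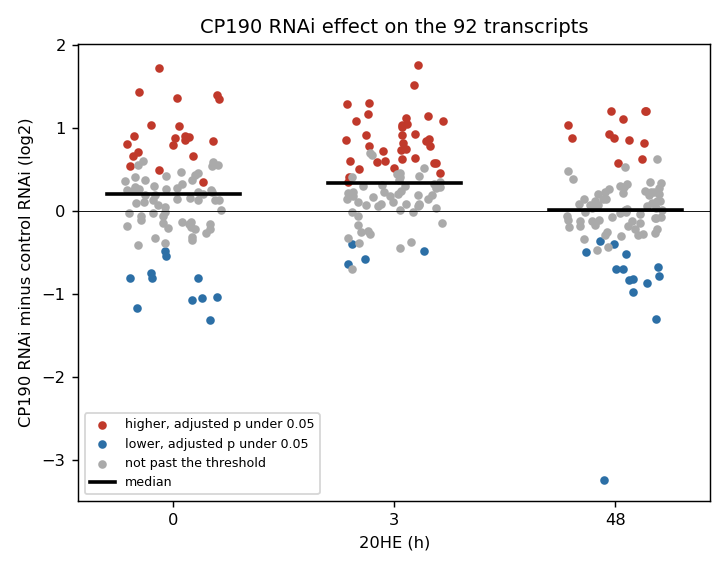
CP190 RNAi minus control RNAi in log2 intensity for each of the 92 transcripts at 0, 3 and 48 h of 20HE, with red for members higher and blue for members lower at an adjusted p under 0.05, grey for the rest, and a black bar at the median. The medians are 0.20, 0.34 and 0.019, and 21, 36 and 12 members are red.

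The change from 0 to 48 h differed between the arms for 20 members. It was higher in CP190 RNAi cells for 5 and lower for 15, 5.43 and 16.3% of the members, beside 0.823 and 1.36% of all transcripts and 1.37 and 2.13% of those above the floor. Of the 5, 4 share a profile, and the 15 lay in 12 of the 62 blocks of identifiers. The count of 20 became 6 without CP190 0 h replicate 1 and also without control 48 h replicate 2. It was 11 and 10 without control 0 h replicate 1 and 2, 9 without control 48 h replicate 1, and 13 and 8 without CP190 48 h replicate 1 and 2. FBtr0075528 had 3473 and 2522 at 0 h, 2213 and 1618 at 3 h and 956 and 793 at 48 h in CP190 RNAi cells. In control RNAi cells it had 1269 and 1043 at 0 h, 1115 and 779 at 3 h and 2549 and 1816 at 48 h. The arms crossed, CP190 RNAi cells being higher at 0 and 3 h and lower at 48 h, with no overlap at any time. The 3 h call of FBtr0075528 was lost without CP190 3 h replicate 1 (adjusted p = 0.201) and without control 3 h replicate 2 (0.211). The change to 48 h was -1.76 in CP190 and 0.90 in control RNAi cells, a difference of -2.67 ± 0.32 (SE; adjusted p = 0.00117). Its 48 h difference between the arms, -1.30 ± 0.23 (SE; adjusted p = 0.00513), did not pass without control 48 h replicate 1 (adjusted p = 0.0704).

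Of the 36 members higher in CP190 RNAi cells at 0 or 3 h, 4 were past the threshold in the opposite direction at 48 h, namely FBtr0075528 and 3 others singled out after their values were seen. How often other transcripts cross in this way was not counted, so the 4 are described singly. FBtr0086148 had 7025 and 7823 at 0 h, 5174 and 5719 at 3 h and 7172 and 8175 at 48 h in CP190 RNAi cells. In control RNAi cells it had 7042 and 6735 at 0 h, 4068 and 3565 at 3 h and 12672 and 14676 at 48 h. The ranges of the arms overlapped at 0 h, and control RNAi cells were the lower at 3 h and the higher at 48 h (difference of 48 h responses -0.94 ± 0.16, SE; adjusted p = 0.00823). FBtr0071845 had 12405 and 9449 at 0 h, 8446 and 8048 at 3 h and 6892 and 5426 at 48 h in CP190 RNAi cells. In control RNAi cells it had 6351 and 6848 at 0 h, 4338 and 4804 at 3 h and 11860 and 10423 at 48 h. Its CP190 arrays went on down after 3 h while its control arrays ended above those at 0 h (-1.58 ± 0.20, SE; adjusted p = 0.0015). For FBtr0087429 the difference of 48 h responses was -0.86 ± 0.18 (SE; adjusted p = 0.0311), and the call was lost without any 48 h array, control 0 h replicate 1 or either CP190 0 h array (adjusted p between 0.064 and 0.144). The 3 h call of FBtr0086148 was lost without control 3 h replicate 2 or either CP190 3 h array (adjusted p between 0.0503 and 0.157), and that of FBtr0087429 without CP190 3 h replicate 2 or control 3 h replicate 1 (0.0944 to 0.12). The 48 h call of FBtr0087429 was lost in 8 of 12 fits that left out an array (adjusted p of 0.0587 to 0.321).

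FBtr0076243 had the next largest gap. In CP190 RNAi cells it had 785 and 1060 at 0 h, 693 and 864 at 3 h and 1354 and 1288 at 48 h, against 1542 and 1518, 1005 and 992, and 15277 and 10208 in control RNAi cells. Its mean was thus lower at 3 h in both arms, though the 3 h and 0 h arrays overlapped in CP190 RNAi cells. Its 48 h arrays lay above the 0 h arrays in both arms, by a small margin in CP190 RNAi cells and a wide one in control RNAi cells. The change to 48 h was 0.53 in CP190 and 3.03 in control RNAi cells, a difference of -2.49 ± 0.26 (SE; adjusted p = 5.26e-04). At 48 h CP190 RNAi cells were lower by a log2 difference of -3.24 ± 0.18 (SE; adjusted p = 1.19e-06).

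In the other direction, FBtr0080911 had a change to 48 h of -0.67 in CP190 and -2.19 in control RNAi cells, a difference of 1.52 ± 0.25 (SE; adjusted p = 0.00803). Its arrays at 48 h stood at 2831 and 2861 in CP190 RNAi cells and at 1251 and 1382 in control RNAi cells. The other 4 of the 5 were FBtr0113039 (1.40 ± 0.28, SE; adjusted p = 0.0243), FBtr0089910 (adjusted p = 0.026), FBtr0089911 (0.0456) and FBtr0114471 (0.0242). These 4 followed the same course, as described above, so the 5 calls are not 5 separate measurements. Each of the 4 had an array near background at 48 h in both arms, and its arms had differed at 0 h. For FBtr0113039 both arms ended near background, at 517 and 520 in CP190 RNAi cells and at 512 and 462 in control RNAi cells, and the arms had differed at 0 h. The call for FBtr0113039 was lost without CP190 0 h replicate 1, control 0 h replicate 2 or any 48 h array (adjusted p of 0.0648 to 0.114).

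**Figure D5:**
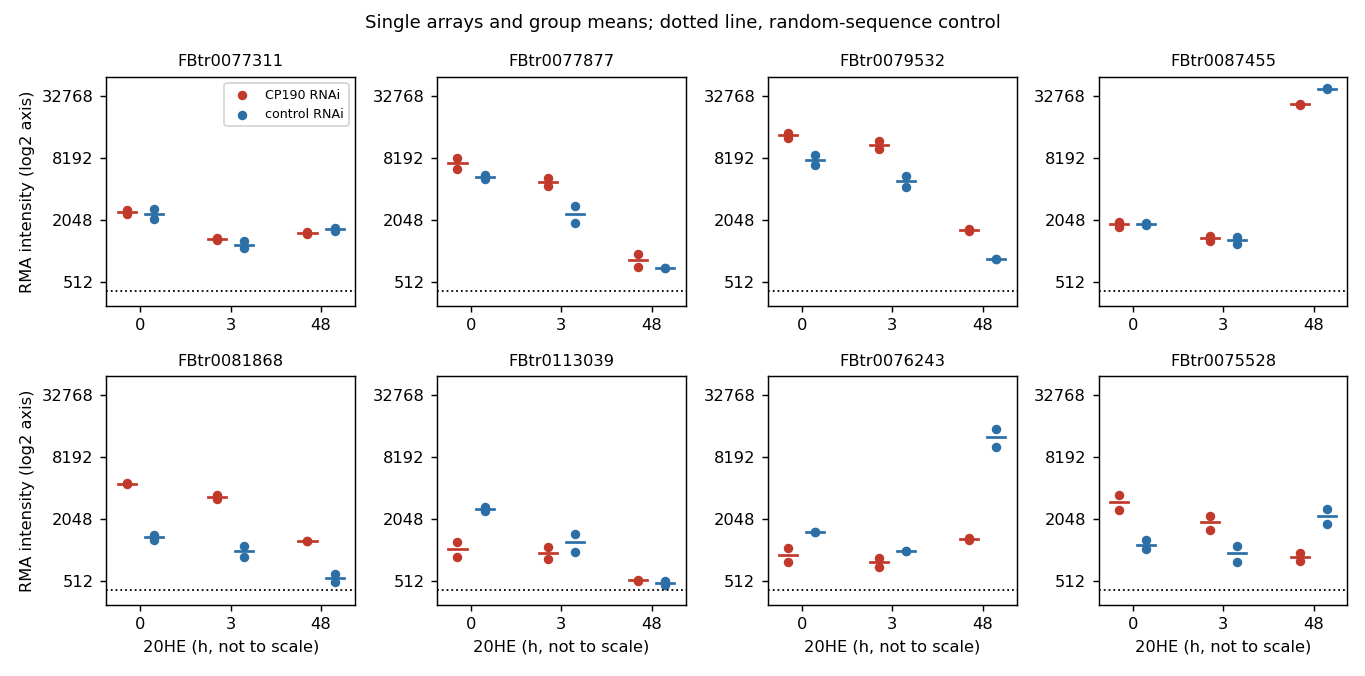
RMA intensity on a log2 axis for 8 members in every array, with CP190 RNAi (red) left of control RNAi (blue) at 0, 3 and 48 h of 20HE, bars at the mean of 2 arrays and a dotted line at the mean of the random-sequence control. FBtr0075528 shows the arms crossing at 48 h, and FBtr0076243 shows 15277 and 10208 in control RNAi cells at 48 h beside 1354 and 1288 in CP190 RNAi cells.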

How the data were processed

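What the authors deposited is a single table of RMA intensities, not log-transformed, in which each transcript has 1 value on each array. RMA is named in the submitters' processing notes; it subtracts background, brings the arrays to 1 distribution and combines a transcript's probes. Not given in the sources used here are the RMA version, the genome build and the annotation release. The titles name Kc cells in all 12 samples, while the extraction protocol also names Mbn2 cells.

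Here the log2 of each intensity was taken, with no pseudocount. Models of 6 group means over all 12 arrays were fitted by lmFit and eBayes (limma 3.58.1, R 4.3.3) to all 16637 transcripts. A run on simulated arrays had noise independent between arrays, so it does not cover the shared deviation of same-numbered replicates given below. Two-sided p-values received Benjamini-Hochberg adjustment across all transcripts, and the threshold was 0.05. The 7 comparisons tested were CP190 against control RNAi at each time and over the 3 times, the difference of responses at 3 and 48 h, and 48 h against the midpoint. Named members were the lowest at 3 h, those at the limit, the 2 largest rises and falls past the threshold in each comparison and the 2 largest changes at 48 h. Members and lists were chosen with earlier results of these data known.

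Same-numbered replicates deviated together, with correlations of 0.147 to 0.608 over the 15 pairs of groups. The main fits did not pair the samples, and the replicate number entered only as a block in an alternative fit. The labels do not say what same-numbered replicates share. The number of arrays limits the precision. Alternatives were the replicate block, centring, quantile normalisation, a trended robust prior, fits of only the arrays compared, a floor before the fit, leaving out each array, and other limits of the rule.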

Additional observations from a re-analysis of the deposited data

Results flagged for a closer look

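The change from 0 to 48 h of 20HE differed between CP190 and control RNAi cells for 20 of the 92 members by the test of the difference itself, beside 2.18% of all transcripts and 3.49% of those above the floor. Leaving out single arrays gave 6 to 18 members. The differences, CP190 minus control, were 1.52 for FBtr0080911, 1.40 for FBtr0113039, -2.67 for FBtr0075528 and -2.49 for FBtr0076243. For FBtr0113039 the 48 h arrays of both arms were near background, and its call was lost in 6 of the 12 fits that left out an array.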

How the results depend on the processing

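A limit of -0.3 gave 188 members and one of -0.5 gave 58. Leaving out single arrays gave 84 to 149 members. With the members kept, it gave 19 to 35 calls for CP190 RNAi at 0 h, 18 to 42 at 3 h, 15 to 27 at 48 h and 48 to 57 over the 3 times. It gave 6 to 18 calls for the difference of 48 h responses, 57 to 60 for 48 h against the midpoint and 0 each time for the 3 h responses compared between arms. With the replicate block the counts were 45 at 0 h, 53 at 3 h, 35 at 48 h, 63 over the 3 times, 28 for the difference of 48 h responses, 65 against the midpoint and 0 for the 3 h responses compared between arms. The block also raised the calls over all transcripts, to 15.7% at 0 h, 12.6% at 3 h, 9.94% at 48 h, 29.5% over the 3 times, 4.36% for the difference of 48 h responses and 49.0% against the midpoint. Of the 424 refits of named members, 412 kept their side of the threshold, 12 lost it, each with an array left out, and 0 changed sign. The replicate block changed no call of a member in the comparison for which it was named. The members with the smaller 3 h fall in CP190 RNAi cells numbered 75 after centring and 74 after quantile normalisation, alternatives chosen after seeing the data.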

Other observations

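Across the 92 members, which are not independent, the CP190 RNAi differences at 0 h and 3 h, from separate arrays, correlated by 0.927 (Spearman's rho 0.918), and those at 0 h and 48 h by 0.318 (rho 0.295). The changes at 3 h in the 2 arms correlated by -0.0016 among the members. Choosing members on the mean of these 2 changes limits their correlation, so nothing is read from it. The changes at 48 h correlated by 0.797, a value that cannot be compared with the one at 3 h. The same correlations over all transcripts are not given here.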
